A study of Sus scrofa with 6 samples.

Results

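The 9 genes described here are the R-spondin ligands RSPO1, RSPO2 and RSPO3, their receptors LGR4, LGR5 and LGR6, and the WNT ligands WNT1, WNT5A and WNT8B. They were taken by symbol from the 30477 genes of the count tables, and each symbol matched 1 gene. The tables come from porcine midbrain-like organoids (pMLOs), 3-dimensional cultures patterned towards ventral midbrain that were profiled cell by cell with droplet 3′ RNA sequencing. All 6 libraries were grown from 1 embryonic stem cell line of in vitro fertilised pig embryos, IVF_1_ pESC_FIW, with replicates A and B on each of days 11, 28 and 45 (D11, D28 and D45). The organoids of every day started in the TGF-beta receptor inhibitor SB431542, the BMP antagonist Noggin, the Sonic hedgehog protein SHH-C24II and the GSK3 inhibitor CHIR99021, which activates WNT signalling inside the cell, and then in FGF8, joined by BDNF and ascorbic acid before D11. The D28 and D45 organoids had in addition been embedded in Matrigel and fed with GDNF, db-cAMP and the Notch pathway inhibitor DAPT in place of FGF8, so they differ from D11 in medium as well as in age. There was no untreated arm and no arm without the GSK3 inhibitor. Replicates A and B are described as biological duplicates with no word on separate differentiations or runs, so every p-value below measures the spread between these libraries only, and with 2 libraries a day an exact permutation test cannot go below 0.333.

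R-spondins are secreted proteins that bind LGR receptors together with the membrane ubiquitin ligases ZNRF3 and RNF43, which otherwise remove Frizzled receptors from the cell surface. Cells that bind an R-spondin keep more Frizzled and answer more strongly to a WNT ligand, but an R-spondin without a WNT does little. In the embryonic midbrain WNT1 is made by floor plate and dorsal midline cells and feeds the LMX1A programme of dopaminergic progenitors, WNT5A is a ligand linked mainly to beta-catenin-independent signalling and to the shape of the ventral midbrain, and WNT8B is known from the forebrain, the hypothalamus and the dorsal midline. LGR5 is best known as a marker of stem cells in gut and other epithelia.

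On the RefSeq annotation of Sscrofa11.1, RSPO1 (ENSSSCG00000032240) lies at chr6:93664839-93690328 on the minus strand, RSPO2 (ENSSSCG00000006034) at chr4:29415774-29577890 on the plus strand, and RSPO3 (ENSSSCG00000004218) at chr1:35985985-36066432 on the minus strand. The R-spondin genes have 6, 6 and 5 exons in that order. LGR4 (ENSSSCG00000013335) lies at chr2:32871837-32979150, LGR5 (ENSSSCG00000030511) at chr5:35463257-35595234 and LGR6 (ENSSSCG00000044583) at chr10:24358946-24454430, all on the plus strand with 18 exons each. WNT1 (ENSSSCG00000000183) lies at chr5:15010607-15015007 on the plus strand with 4 exons, WNT5A (ENSSSCG00000035859) at chr13:37344684-37367215 on the minus strand with 5, and WNT8B (ENSSSCG00000006164) at chr14:111562278-111589897 on the plus strand with 6. LGR4, LGR5, WNT1, WNT5A and WNT8B each overlap a gene on the opposite strand (LOC110259286, TSPAN8, WNT10B, LOC102162847, and LOC106509031 with SEC31B, in that order). Whether the counting used strand is not given in the sources used here. Whether reads of these partners entered the counts of the members was not tested. RSPO2 and WNT8B were each concentrated in a few clusters of cells, with different leading clusters on D11 and D28 and the same one on D45. The 300 bases before their annotated starts are therefore shown, RSPO2 at chr4:29415474-29415773 and WNT8B at chr14:111561978-111562277, both on the plus strand and 5′ to 3′.
RSPO2: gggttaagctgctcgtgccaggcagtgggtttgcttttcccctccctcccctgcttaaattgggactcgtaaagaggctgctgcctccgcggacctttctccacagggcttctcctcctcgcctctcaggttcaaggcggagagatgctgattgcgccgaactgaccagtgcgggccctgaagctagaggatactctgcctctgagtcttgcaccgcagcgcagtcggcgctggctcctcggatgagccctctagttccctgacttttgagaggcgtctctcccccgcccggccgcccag
WNT8B: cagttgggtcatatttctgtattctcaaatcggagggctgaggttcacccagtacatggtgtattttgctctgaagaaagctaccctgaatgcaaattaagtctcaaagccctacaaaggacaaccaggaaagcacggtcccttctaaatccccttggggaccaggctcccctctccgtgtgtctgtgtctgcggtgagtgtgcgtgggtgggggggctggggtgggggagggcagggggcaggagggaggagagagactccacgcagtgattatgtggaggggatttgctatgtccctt
The windows hold 62.0% and 54.7% G and C. Neither holds TAATTA, the core read by homeodomain factors such as LMX1A, or CTTTGAT, the core read by TCF and LEF factors, on either strand, so no letters are in capitals. Among 19556 windows of the same length 4.8% hold TAATTA and 2.67% hold CTTTGAT. The absence says only that these letters are not in these windows.

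After filtering, 13870 to 21553 cells per library were kept, 102940 in all, with 106805311 to 180034791 UMIs (unique molecular identifiers, each a captured RNA molecule) per library. Depth per cell was uneven, with medians per cell of 10757 UMIs (A) and 8845 UMIs (B) for D11, 5505 UMIs and 8130 UMIs for D28, and 2300.5 UMIs and 4341 UMIs for D45. Cell barcodes found in more than 1 library numbered 1206 among the kept cells. The labels call every library midbrain dopaminergic neurons, but clustering gave floor plate-like, neuron-like, mitotic-like, astrocyte-like, oligodendrocyte lineage-like, fibroblast-like and ciliated-like cells beside 36051 cells in unnamed clusters. The libraries of D28 differed in make-up. The summed level of 7 fibroblast markers was 1319 CPM (counts-per-million) in D28 A and 394 CPM in D28 B, against 12.3 and 16.7 CPM on D11 (with 1 of the 7 genes at 0 in each D11 library) and 897 and 2494 CPM on D45. The 8 floor plate markers summed highest on D11, with 2145 and 2043 CPM on D11, 836 and 1388 CPM on D28, and 257 and 356 CPM on D45.

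The first comparison asks how each gene's level in whole organoids differed between days. RSPO1 and RSPO3 rose between D11 and D28, WNT8B fell over the same interval, and by D45 RSPO2 and WNT5A were also below D11. No LGR receptor passed the test between any pair of days. Levels are CPM of the kept cells of a library, and fold changes are log2 values with their standard errors from edgeR's quasi-likelihood test over all 22192 genes tested, with Benjamini-Hochberg adjustment. In such sums, fewer cells that make a gene and less RNA of it per cell cannot be told apart.

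**Figure D1:**
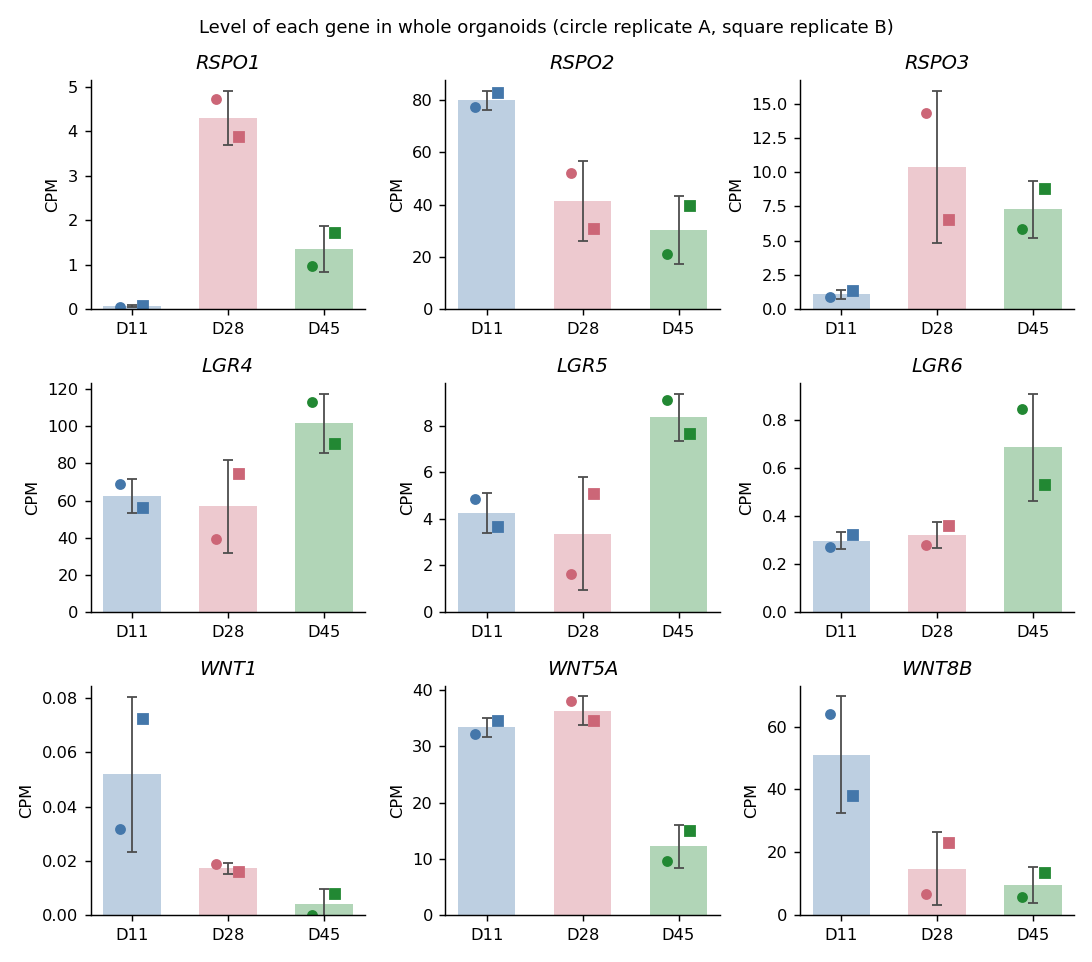
Level of each gene in whole organoids, in CPM on linear axes of differing range, for replicate A (circles) and replicate B (squares) of D11, D28 and D45, with bars at the mean of the 2 libraries and error bars of 1 SD. RSPO1 went from under 0.1 CPM on D11 to 4.74 and 3.88 CPM on D28, the RSPO2 libraries of D11 lay above all later ones, and both LGR4 libraries of D45 lay above the other 4.

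Among the ligands, RSPO1, an R-spondin studied in gonad development, was close to undetected on D11. It gave 8 and 14 UMIs on D11, or 0.0506 and 0.0778 CPM, then 4.74 and 3.88 CPM on D28, and 0.980 and 1.72 CPM on D45 (A, then B). The 3 days did not overlap. RSPO1 rose 5.79 ± 0.50 (SE) log2 units from D11 to D28 (edgeR adjusted p = 0.00102) and fell by 1.83 ± 0.40 from D28 to D45 (edgeR adjusted p = 0.038). It stayed 3.97 ± 0.48 above D11 on D45 (edgeR adjusted p = 0.00138). The fall after D28 lost its call without D11 A (edgeR adjusted p = 0.0902), D11 B (0.0902), D45 A (-1.45, adjusted p = 0.23) or D45 B (-2.34, adjusted p = 0.114). Both rises from D11 kept theirs in all 6 omissions of a library. With the replicate letter as a block the fall was -1.89 (adjusted p = 0.0778).

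RSPO2, the R-spondin of limb, lung and midline tissues, went the other way. Its level was 77.4 and 82.5 CPM on D11, 52.1 and 30.7 CPM on D28, and 21.0 and 39.5 CPM on D45. The D11 libraries lay above all others, while D28 and D45 overlapped. From D11 to D45 RSPO2 fell by 1.80 ± 0.41 log2 units (edgeR adjusted p = 0.0155), whereas the differences D28 against D11 (-1.18 ± 0.41, adjusted p = 0.0781) and D45 against D28 (-0.63 ± 0.40, adjusted p = 0.324) did not pass. The call was lost without D11 A (-1.83, adjusted p = 0.0571), D11 B (-1.66, adjusted p = 0.0797) or D45 A (-1.39, adjusted p = 0.0971). The share of cells with a UMI of RSPO2 was 12.7, 13.7, 10.7, 6.11, 3.56 and 8.65% in the order of the libraries. Cells under 1000 UMIs were left out of thinning, which kept 13732, 16289, 9918, 12000, 13471 and 13573 cells. Thinned to 1000 UMIs each, these cells showed RSPO2 in 4.81, 5.99, 4.08, 2.13, 1.45 and 3.08%. The order of the libraries was thus the same in these cells at equal depth.

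RSPO3, the R-spondin of vessels and mesenchyme, was detected at 0.859 and 1.32 CPM on D11, 14.3 and 6.48 CPM on D28, and 5.83 and 8.77 CPM on D45. D11 lay below all later libraries, and the libraries of D28 and D45 overlapped. RSPO3 rose 3.04 ± 0.52 log2 units from D11 to D28 (edgeR adjusted p = 0.00859) and was 2.34 ± 0.51 higher on D45 than on D11 (edgeR adjusted p = 0.013). Leaving out D11 A ended both calls (2.77, adjusted p = 0.073, and 2.09, adjusted p = 0.0872), and leaving out D45 B ended the later one (1.96, adjusted p = 0.0795). Without D28 A the rise by D28 was 2.19, still called. The summed fibroblast markers were likewise lowest on D11, higher in A than in B on D28 and higher in B than in A on D45, and their part in the rise was not tested.

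No difference of a receptor passed between days in whole organoids. LGR4, the most widely expressed receptor of the family in most tissues, had 69.0 and 56.1 CPM on D11, 39.1 and 74.6 CPM on D28, and 113 and 90.6 CPM on D45. Both D45 libraries lay above the other 4, and the D28 libraries spanned both of D11. Its differences were -0.43 ± 0.25 (D28 against D11, edgeR adjusted p = 0.255), 0.72 ± 0.25 (D45 against D28, adjusted p = 0.108) and 0.29 ± 0.25 log2 units (D45 against D11, adjusted p = 0.409). A UMI of LGR4 was found in 43.7, 30.5, 19.0, 33.5, 25.7 and 28.0% of cells. At 1000 UMIs per cell the shares were 7.41, 5.95, 3.71, 6.51, 8.73 and 7.96%, where D45 moved from below D11 to above it. The second set of shares leaves out the cells under 1000 UMIs.

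LGR5, a stem cell marker of epithelia, had 4.86 and 3.65 CPM on D11, 1.65 and 5.07 CPM on D28, and 9.08 and 7.65 CPM on D45. D45 lay above the rest, and D11 fell between the 2 libraries of D28. The differences were -0.65 ± 0.43 (D28 against D11, adjusted p = 0.307), 1.22 ± 0.43 (D45 against D28, adjusted p = 0.111) and 0.57 ± 0.43 log2 units (D45 against D11, adjusted p = 0.342), by edgeR. LGR6, the family member found in skin and bone lineages, had 30 to 100 UMIs per library. Its levels were 0.272, 0.322, 0.281, 0.357, 0.845 and 0.528 CPM from D11 A to D45 B, the highest again on D45, and no difference between days passed (0.95 ± 0.35 log2 units for D45 against D28, edgeR adjusted p = 0.119).

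WNT1, the midbrain ligand upstream of LMX1A, was all but undetected. Its UMIs numbered 5, 13, 2, 2, 0 and 1 in the 6 libraries, too few for the low-count filter, and no fold is given. In D45 A, 0 UMIs over 20094 cells allow up to 0.0253 CPM, counting 3 UMIs as the limit of a zero. Of the D11 UMIs, 7, 6 and 5 fell into clusters 8, 10 and 20, which are described below.

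WNT5A was lowest on D45. It had 32.2 and 34.6 CPM on D11, 38.2 and 34.6 CPM on D28, and 9.52 and 14.9 CPM on D45. D45 lay below the other 4 libraries, and the difference between D11 and D28 did not pass (-0.13 ± 0.27 log2 units after scaling, edgeR adjusted p = 0.756). WNT5A fell by 1.72 ± 0.27 from D28 to D45 (edgeR adjusted p = 0.0175) and by 1.85 ± 0.27 from D11 to D45 (edgeR adjusted p = 0.00299). The second call held in every omission, and the first was lost without D45 A (-1.40, adjusted p = 0.118) or D45 B (-2.13, adjusted p = 0.0669).

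WNT8B had 64.2 and 37.9 CPM on D11, 6.55 and 23.0 CPM on D28, and 5.58 and 13.5 CPM on D45. D11 lay above all later libraries, and D28 and D45 overlapped. It fell by 2.11 ± 0.61 log2 units from D11 to D28 (edgeR adjusted p = 0.0479) and by 2.81 ± 0.63 from D11 to D45 (edgeR adjusted p = 0.0142). The fall by D28 was lost without D11 A (-1.70, adjusted p = 0.206), D11 B (-2.39, adjusted p = 0.0911), D45 A (-2.11, adjusted p = 0.0593) or D45 B (-2.11, adjusted p = 0.0588), and its size was -1.51 without D28 A and -3.10 without D28 B. The fall by D45 was lost without D11 A (-2.37, adjusted p = 0.0623) or D45 A (-2.29, adjusted p = 0.0936), and was -3.64 without D45 B.

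Of the 8 members tested in whole organoids, 3 passed between D11 and D28, where 23.1% of all genes tested did. Between D28 and D45, 2 of 8 passed, against 9.4% of all genes, and between D11 and D45, 5 of 8 passed, against 34.6%. The median difference of the members was -0.30, -0.66 and 0.43 log2 units for D28 against D11, D45 against D28 and D45 against D11, and that of all genes 0.03, -0.03 and -0.01.

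The next comparison asks which cells carry ligand and which carry receptor. Cells with at least 1 UMI of a marker were summed within a library and set against the remaining cells of the same library, with the library as a term in the fit. The markers were LMX1A, a homeobox factor of floor plate and roof plate, CORIN, a protease of the floor plate cell surface, STMN2, a tubulin-binding protein of neurons, and COL1A1, a fibrillar collagen of fibroblasts. Cells with a marker UMI were also deeper. Median UMIs in cells with and without LMX1A were 11249.5 and 10589 in D11 A but 9366 and 2804 in D28 A and 7605 and 2060 in D45 A. Since CPM is taken over each sum, depth does not scale the levels, but it does decide which cells show a marker. Thinning to 1000 UMIs per cell also left out the cells with fewer, so it changed depth and the set of cells at once. Of the 77 called differences that could then be fitted, 37 kept their call, gates and days together. The LMX1A calls not kept were LGR5 on D11, LGR4 and WNT5A on D28, and LGR5, WNT5A and WNT8B on D45. Those of CORIN were LGR5 and RSPO3 on D11, LGR4, LGR5, RSPO1 and RSPO3 on D28, and all 5 on D45, among them WNT5A (1.00, edgeR adjusted p = 0.583) and RSPO2 (0.52, adjusted p = 0.728). Those of STMN2 were LGR4 and LGR5 on D11 and RSPO2 on D28, and those of COL1A1 were all 3 on D11, LGR4 and WNT8B on D28, and LGR6, RSPO1 and WNT5A on D45.

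**Figure D2:**
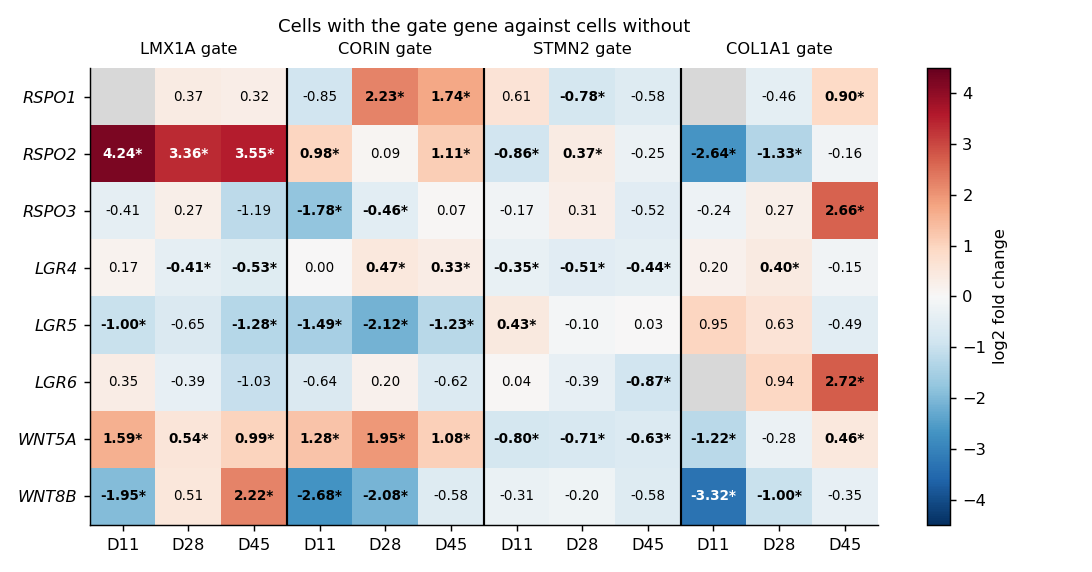
Difference of each member's level between cells with and without 1 UMI of LMX1A, CORIN, STMN2 or COL1A1, in log2 units from edgeR, for each day. Asterisks mark adjusted p under 0.05 and grey boxes a side with 3 or fewer UMIs, and the RSPO2 boxes of the LMX1A gate (4.24, 3.36 and 3.55) hold the largest values shown.

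LMX1A cells were the main carriers of RSPO2. LMX1A was seen in 3344, 5076, 4521, 2455, 1133 and 2128 cells of the 6 libraries. RSPO2 stood at 277 and 233 CPM in them on D11, 97.5 and 111 CPM on D28, and 146 and 143 CPM on D45. Cells without LMX1A had 10.8, 17.2, 16.1, 6.06, 8.23 and 16.1 CPM, so each library showed the same direction, by 6.04 to 25.6 times. The differences were 4.24 ± 0.42 (D11, edgeR adjusted p = 0.000474), 3.36 ± 0.42 (D28, adjusted p = 0.00663) and 3.55 ± 0.42 log2 units (D45, adjusted p = 0.00237). Leaving out D45 A ended the D45 call (3.09, adjusted p = 0.0712), and the D28 difference was 4.21 without D28 A and 2.55 without D28 B. LMX1A cells held 89.5, 85.5, 82.7, 84.9, 64.4 and 66.8% of all RSPO2 UMIs, with 25, 30.3, 44.2, 23.4, 9.21 and 18.4% of all UMIs. Read the other way, 75.6, 65.7, 69.2, 64.9, 39.2 and 51.4% of the RSPO2 cells showed LMX1A, against 22.7, 23.6, 31.6, 17.7, 5.64 and 11.5% of all cells.

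WNT8B changed sides relative to LMX1A. It was at 17.2 and 14.3 CPM in LMX1A cells and 79.8 and 48.1 CPM in the rest on D11 (-1.95 ± 0.22, edgeR adjusted p = 0.00073). On D28 the levels were 9.03 and 25 CPM with LMX1A and 4.6 and 22.4 CPM without (0.51 ± 0.22, adjusted p = 0.268). On D45 they were 24.7 and 34.0 CPM with and 3.64 and 8.85 CPM without (2.22 ± 0.23, edgeR adjusted p = 0.00151). The direction thus turned between D11 and D45, and the difference of the LMX1A effect between these days was 4.17 ± 0.32 log2 units (edgeR adjusted p = 0.000304). At 1000 UMIs per cell the D45 difference was 0.61 (adjusted p = 0.459). LMX1A cells held 6.69 and 11.4% of the WNT8B UMIs on D11, and 40.8 and 46.5% on D45.

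WNT5A was higher in LMX1A cells in 6 of 6 libraries. It had 68.2, 60.3, 45.0, 48.3, 19.3 and 25.2 CPM with LMX1A and 20.3, 23.4, 32.8, 30.4, 8.53 and 12.6 CPM without. The differences were 1.59 ± 0.11 (D11, edgeR adjusted p = 0.000113), 0.54 ± 0.11 (D28, adjusted p = 0.0316) and 0.99 ± 0.12 log2 units (D45, adjusted p = 0.00258). Only the D11 call held throughout. At 1000 UMIs per cell the D28 and D45 differences were 0.05 (adjusted p = 0.957) and 0.09 (adjusted p = 0.934), the D28 call was lost without D28 B (0.41, adjusted p = 0.0829), D45 A (0.54, adjusted p = 0.0826) or D45 B (0.54, adjusted p = 0.0786), and the D45 call without D45 A (0.93, adjusted p = 0.0602).

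LGR5 was lower with LMX1A in 6 of 6 libraries, at 2.99, 1.92, 1.61, 2.68, 5.32 and 3.03 CPM against 5.48, 4.4, 1.68, 5.80, 9.46 and 8.70 CPM. It passed on D11 (-1.0 ± 0.24, edgeR adjusted p = 0.0184) and D45 (-1.28 ± 0.25, adjusted p = 0.0152). Each of these calls was lost when either library of its day was left out (D11 A -1.19, adjusted p = 0.125, D11 B -0.86, adjusted p = 0.221, D45 A -1.58, adjusted p = 0.0886, D45 B -0.98, adjusted p = 0.164). LGR4, by contrast, was present on both sides of the gate, with 70.7, 62.4, 33.4, 59.8, 91.3 and 65.9 CPM with LMX1A and 68.5, 53.4, 43.6, 79.1, 115 and 96.1 CPM without. It was lower with LMX1A on D28 (-0.41 ± 0.07, edgeR adjusted p = 0.0238) and D45 (-0.53 ± 0.08, adjusted p = 0.00474), and not called on D11 (0.17 ± 0.07, adjusted p = 0.148). The D28 call was lost without D11 A, D11 B or D28 A (adjusted p = 0.0577, 0.0593 and 0.102) and the D45 call without D45 B (-0.48, adjusted p = 0.056).

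In the LMX1A comparison 4 of 8 members passed on D11, against 24.4% of all 21107 genes tested, 3 on D28, against 4.83%, and 5 on D45, against 14.9%. The difference of the effect between D45 and D11 passed for 3 members (WNT8B, LGR4 and WNT5A), against 14.2% of genes. For LGR4 it was -0.70 ± 0.11 (edgeR adjusted p = 0.00485) and was lost without D11 B (-0.55, adjusted p = 0.0836). For WNT5A it was -0.60 ± 0.16 (adjusted p = 0.0427) and was lost without D11 A (-0.34, adjusted p = 0.412), D11 B (-0.74, adjusted p = 0.0626), D45 A (-0.65, adjusted p = 0.128) or D45 B (-0.55, adjusted p = 0.189).

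**Figure D3:**
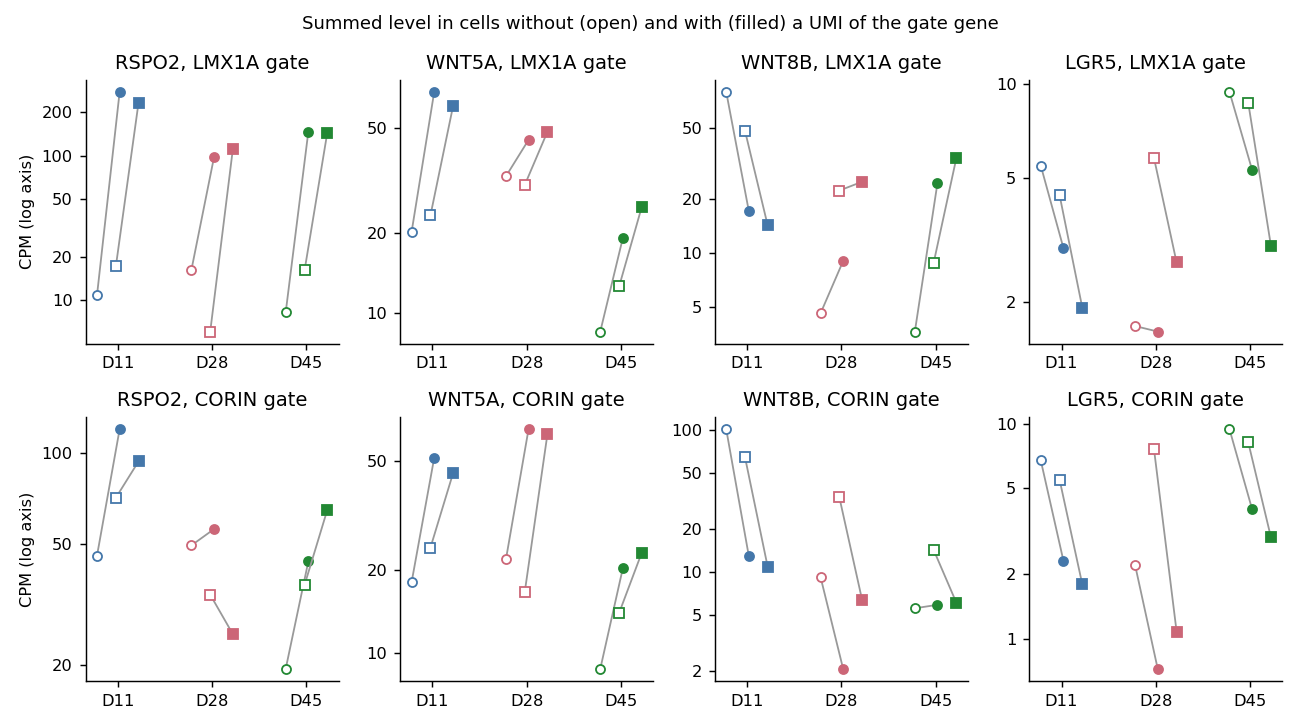
Levels of RSPO2, WNT5A, WNT8B and LGR5 in CPM (log axes of differing range) in cells without (open) and with (filled) a UMI of LMX1A (upper row) or CORIN (lower row), for replicate A (circles) and B (squares) of each day, with lines joining the sums of 1 library. The WNT8B lines of the LMX1A gate run down on D11, from 79.8 to 17.2 CPM in replicate A, and up on D45, from 3.64 to 24.7 CPM.

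CORIN cells were high in WNT5A and low in LGR5 in 6 of 6 libraries. CORIN was seen in 5570, 8238, 2864, 3427, 535 and 892 cells of the libraries. WNT5A had 51.4, 45.2, 65.2, 62.6, 20.4 and 23.2 CPM with CORIN and 18.1, 24.2, 22.0, 16.8, 8.78 and 14.0 CPM without, and was higher in 6 of 6 libraries. The differences were 1.28 ± 0.16 (D11, edgeR adjusted p = 0.000799), 1.95 ± 0.17 (D28, adjusted p = 5.27e-05) and 1.08 ± 0.18 log2 units (D45, adjusted p = 0.00479, or 0.82 with adjusted p = 0.0899 without D45 A). On D28, 56.8 and 64.6% of the WNT5A cells showed CORIN, against 20 and 24.7% of all cells.

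RSPO1 appeared in CORIN cells on D28. It had 0 and 7 UMIs in the CORIN cells of D11, then 8.58 and 7.44 CPM on D28 and 4.27 and 2.96 CPM on D45, against 2.44 and 1.60 CPM and 0.757 and 1.58 CPM in cells without CORIN. The differences were 2.23 ± 0.34 on D28 (edgeR adjusted p = 0.0011) and 1.74 ± 0.44 on D45 (adjusted p = 0.0252). The D28 call held in all omissions of a library but not at 1000 UMIs per cell (1.28, adjusted p = 0.186), and the D45 call was lost without D45 A (1.00, adjusted p = 0.245), was 2.51 without D45 B and has no fold at 1000 UMIs per cell, where the 98 and 182 CORIN cells left held 0 UMIs of RSPO1. Of the RSPO1 cells of D28, 69.3 and 74.8% showed CORIN.

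WNT8B and LGR5 were low in CORIN cells. WNT8B had 13.0, 10.9, 2.08, 6.40, 5.88 and 6.08 CPM with CORIN and 102, 64.3, 9.24, 33.6, 5.55 and 14.3 CPM without. It was lower on D11 (-2.68 ± 0.20, edgeR adjusted p = 6.39e-05) and D28 (-2.08 ± 0.23, adjusted p = 0.00018) and not called on D45 (-0.58 ± 0.27, adjusted p = 0.164), where D45 A had nearly equal levels on both sides. LGR5 had 2.31, 1.79, 0.725, 1.08, 4.01 and 2.96 CPM with CORIN and 6.74, 5.47, 2.20, 7.62, 9.42 and 8.16 CPM without, lower in 6 of 6 libraries. Its differences were -1.49 ± 0.21 (D11, edgeR adjusted p = 0.00143), -2.12 ± 0.26 (D28, adjusted p = 0.000329, or -1.41 without D28 B) and -1.23 ± 0.26 (D45, adjusted p = 0.0116), the last lost without D45 A (-1.36, adjusted p = 0.0699) or D45 B (-1.22, adjusted p = 0.0922). At 1000 UMIs per cell the LGR5 differences were -0.56 on D11 (adjusted p = 0.557) and -2.80 on D28 (adjusted p = 0.0745), and D45 has no fold, with LGR5 in 0 of 98 and 0 of 182 CORIN cells.

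RSPO2 was at 120 and 94.0 CPM with and 45.9 and 71.3 CPM without CORIN on D11 (0.98 ± 0.22, edgeR adjusted p = 0.0144), which was lost without D11 A (0.48, adjusted p = 0.254). On D28 it was at 56.2 and 25.3 CPM with and 49.6 and 34.1 CPM without (0.09 ± 0.22, adjusted p = 0.77), and on D45 at 43.9 and 64.8 CPM with and 19.4 and 36.7 CPM without (1.11 ± 0.24, adjusted p = 0.0122). The D45 call was lost without D45 A (0.92, adjusted p = 0.152) or D45 B (1.19, adjusted p = 0.0893). RSPO3 was lower with CORIN on D11, at 0.432 and 0.471 CPM against 1.17 and 2.15 CPM (-1.78 ± 0.22, edgeR adjusted p = 0.00072). On D28 its difference of -0.46 ± 0.16 (adjusted p = 0.0468) was lost without every library except D11 A, with adjusted p up to 0.261 without D28 B. LGR4 was higher with CORIN on D28 (42.5 and 84.6 CPM against 37.0 and 68.2 CPM, 0.47 ± 0.08, edgeR adjusted p = 0.00233) and on D45 (141 and 95.3 CPM against 111 and 90.0 CPM, 0.33 ± 0.08, adjusted p = 0.0244). The D45 call was lost in 5 of 6 omissions, with 0.18 and adjusted p = 0.315 without D45 A.

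Of the 8 members 5, 6 and 5 passed in the CORIN comparison on D11, D28 and D45, against 23.8, 44.5 and 23.3% of all 21571 genes tested. The effect differed between D45 and D11 for WNT8B (2.10 ± 0.34, edgeR adjusted p = 0.00925) and RSPO3 (1.85 ± 0.29, adjusted p = 0.00794), 2 of 8 members against 8.92% of genes. The WNT8B difference was 2.79 without D45 B. At 1000 UMIs per cell neither call was kept (1.99, adjusted p = 0.711, for WNT8B and 2.62, adjusted p = 0.423, for RSPO3). The RSPO3 difference was lost without D11 B (1.42, adjusted p = 0.0708) or D45 B (1.78, adjusted p = 0.0567).

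Splitting LMX1A cells by CORIN separated the ligands further. RSPO2 did not pass on D11, with 284 and 218 CPM in LMX1A cells with CORIN and 264 and 261 CPM in those without (-0.07 log2 units, edgeR adjusted p = 0.894). On D28 it was at 104 and 82.1 CPM against 93.1 and 137 CPM, and on D45 at 237 and 199 CPM against 136 and 135 CPM (0.69 ± 0.17, adjusted p = 0.0287), where only 66 and 157 cells carried both markers. That call was lost without D45 A (0.56, adjusted p = 0.263) or D45 B (0.79, adjusted p = 0.203). In CORIN cells without LMX1A, RSPO2 was at 11.09, 11.3, 9.31, 3.09, 10.0 and 26.5 CPM, far under its levels in LMX1A cells.

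WNT8B was lower in LMX1A cells with CORIN in 6 of 6 libraries. The levels were 9.57, 6.01, 3.27, 9.59, 10.7 and 15.5 CPM with CORIN and 33.3, 29.9, 13.2, 38.6, 26.3 and 36.4 CPM without. The differences were -2.05 ± 0.14 (D11, edgeR adjusted p = 2.04e-05), -1.86 ± 0.15 (D28, adjusted p = 1.19e-06) and -1.22 ± 0.21 (D45, adjusted p = 0.00434, lost without D45 B at -1.30, adjusted p = 0.153). WNT5A and RSPO1 were on the other side on D28, WNT5A at 75.6 and 71.6 CPM with CORIN against 22.6 and 27.7 CPM (1.71 ± 0.10, edgeR adjusted p = 1.24e-07), and RSPO1 at 8.29 and 8.42 CPM against 2.64 and 2.61 CPM (1.81 ± 0.29, adjusted p = 0.000299). LGR4 was also higher with CORIN on D28 (40.1 and 72.0 CPM against 28.5 and 49.2 CPM, 0.67 ± 0.10, adjusted p = 0.000123). LGR5 was lower with CORIN on D28 (0.703 and 1.02 CPM against 2.27 and 4.14 CPM, -1.70 ± 0.33, edgeR adjusted p = 0.00116). At 1000 UMIs per cell the D28 differences of WNT5A and LGR4 were 1.24 (adjusted p = 0.258) and 0.67 (adjusted p = 0.629), and the calls of WNT8B on all 3 days and of RSPO1 and LGR5 on D28 could not be fitted, so no call of this split on D11 or D28 was kept.

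In this split 3, 5 and 3 of 8 members passed on D11, D28 and D45, against 7.27, 48.4 and 9.19% of all 18124 genes tested. The remaining D11 calls were RSPO3 (-1.66 ± 0.43, edgeR adjusted p = 0.0382), -2.49 without D11 A and lost without D11 B (-0.74, adjusted p = 0.855), D45 A (-1.66, adjusted p = 0.056) or D45 B (-1.66, adjusted p = 0.0549), and LGR5 (-1.12 ± 0.27, adjusted p = 0.0249), lost without D11 A (-0.67, adjusted p = 0.947) or D11 B (-1.58, adjusted p = 0.0566). The remaining D45 call was WNT5A (0.56 ± 0.16, adjusted p = 0.0474), lost without D11 A, D11 B, D45 A or D45 B (adjusted p = 0.0605, 0.0603, 0.148 and 0.461). The difference of the split between D45 and D11 passed for 0 of 8 members by edgeR, against 3.38% of genes. There were 2 members at an unadjusted p under 0.05, and DESeq2 called 0.

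STMN2 marked 3940, 7196, 10693, 9657, 14474 and 12619 cells, most of the cells from D28 on. LGR4 and WNT5A were lower in STMN2 cells in 6 of 6 libraries. LGR4 had 61.2, 50.4, 35.9, 69.9, 102 and 86.9 CPM with STMN2 and 72.2, 59.3, 50.6, 86.4, 152 and 101 CPM without. Its differences were -0.35 ± 0.08 (D11, edgeR adjusted p = 0.00797), -0.51 ± 0.08 (D28, adjusted p = 0.000772) and -0.44 ± 0.08 (D45, adjusted p = 0.00268), the D11 call lost without D11 A (-0.34, adjusted p = 0.131) or D11 B (-0.35, adjusted p = 0.097). The level with STMN2 was 0.676 to 0.859 times that without. The gate does not stand for the neuron-like class, which leaves out the unnamed clusters 7, 17, 26, 27 and 37 although all 8 neuron markers mark them. In every library STMN2 cells outnumbered the neuron-like class and these clusters together, so the gate also holds cells outside them. The part of free RNA in the gate was not tested. WNT5A had 20.9, 26.4, 34.8, 29.7, 8.47 and 13.4 CPM with STMN2 and 36.8, 39.2, 50.3, 46.9, 13.3 and 19.4 CPM without. It differed by -0.80 ± 0.08 (D11, edgeR adjusted p = 6.85e-05), -0.71 ± 0.08 (D28, adjusted p = 9.36e-05) and -0.63 ± 0.09 log2 units (D45, adjusted p = 0.000815).

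RSPO2 was lower with STMN2 on D11 (44.2 and 66.1 CPM against 90.9 and 91.8 CPM, -0.86 ± 0.12, edgeR adjusted p = 0.000508) and higher on D28 (55.6 and 33.3 CPM against 39.2 and 24.1 CPM, 0.37 ± 0.13, adjusted p = 0.0432). The D28 call was lost without D28 A (0.33, adjusted p = 0.173), D28 B (0.41, adjusted p = 0.0827), D45 A (0.37, adjusted p = 0.0517) or D45 B (0.37, adjusted p = 0.0518), and the difference was -0.41 at 1000 UMIs per cell (adjusted p = 0.0978). RSPO1 was lower with STMN2 on D28 (4.49 and 3.05 CPM against 5.65 and 5.97 CPM, -0.78 ± 0.17, edgeR adjusted p = 0.00548), which was lost without D28 B (-0.42, adjusted p = 0.102). LGR5 was higher with STMN2 on D11 (6.32 and 4.51 CPM against 4.27 and 3.16 CPM, 0.43 ± 0.10, edgeR adjusted p = 0.00947), lost without D11 A (0.41, adjusted p = 0.21) or D11 B (0.45, adjusted p = 0.129). WNT8B went opposite ways in the libraries of D28, at 7.39 CPM with STMN2 and 3.52 CPM without in A and at 20 and 30.4 CPM in B (-0.20 ± 0.27, adjusted p = 0.602 over both, 0.98 with adjusted p = 0.000924 without B, and -0.74 with adjusted p = 9.68e-05 without A). LGR6 was lower on D45 (-0.87 ± 0.28, adjusted p = 0.0427), lost without D45 A (-0.91, adjusted p = 0.248) or D45 B (-0.91, adjusted p = 0.173).

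Of 8 members 4, 4 and 3 passed in the STMN2 comparison on the 3 days, against 32.2, 40.6 and 30.8% of all 21662 genes tested. The effect differed between D45 and D11 for 1 member, RSPO2 (0.61 ± 0.17, edgeR adjusted p = 0.0431), against 15.7% of genes. It was lost without D11 A (0.34, adjusted p = 0.281), D28 B (0.48, adjusted p = 0.0518), D45 A (0.35, adjusted p = 0.418) or D45 B (0.67, adjusted p = 0.114).

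COL1A1 cells numbered 206, 161, 2293, 402, 1252 and 3400, and fibroblast-like cells 3, 22, 1019, 97, 852 and 1794, so the gate holds other cells too. COL1A1 UMIs lay mostly in the neural progenitor-like cluster 18 on D11 (52.8%). On D28 (82.0%) and D45 (91.5%) they lay mostly in the fibroblast-like cluster 11. The D11 gate is thus not one of fibroblasts, and its difference from D45 is not a change within 1 kind of cell. In these sums the median of all genes was itself shifted by -0.18 log2 units on D11 and by 0.28 for the difference between D45 and D11, and the values below stand beside that shift. RSPO3 was higher in these cells on D45, at 28.7 and 15.9 CPM with COL1A1 and 2.64 and 5.58 CPM without (2.66 ± 0.36, edgeR adjusted p = 0.000341). The size depended on the library, with 1.69 without D45 A and 3.59 without D45 B, both called. On D11 and D28 no difference passed, at 0.736, 1.31, 15 and 7.45 CPM with COL1A1 and 0.862, 1.32, 14.1 and 6.43 CPM without. COL1A1 cells held 60.3 and 56.1% of the RSPO3 UMIs of D45, with 12.2 and 31.0% of all UMIs. Of the RSPO3 cells of D45, 44.3 and 51.5% showed COL1A1, against 6.23 and 18.5% of all cells.

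LGR6 was also higher with COL1A1 on D45, at 3.73 and 1.04 CPM with and 0.443 and 0.297 CPM without (2.72 ± 0.39, edgeR adjusted p = 0.000789, or 1.98 with adjusted p = 0.0581 without D45 A). COL1A1 cells held 54.0 and 61.2% of its UMIs on that day, with 12.2 and 31.0% of all UMIs. RSPO2 was lower with COL1A1 in 6 of 6 libraries, at 7.73, 22.3, 24.7, 9.14, 16.1 and 33.3 CPM against 78.7, 83.3, 60.6, 31.7, 21.6 and 42.3 CPM. It passed on D11 (-2.64 ± 0.25, edgeR adjusted p = 0.000109, or -3.49 without D11 B) and D28 (-1.33 ± 0.20, adjusted p = 0.000687). WNT8B was lower in 6 of 6 libraries as well, at 9.20, 2.19, 3.13, 11.8, 4.41 and 9.47 CPM against 65.1, 38.3, 7.61, 23.5, 5.74 and 15.3 CPM, and passed on D11 (-3.32 ± 0.25, edgeR adjusted p = 2.9e-05, or -4.31 without D11 A) and D28 (-1.0 ± 0.18, adjusted p = 0.00261). WNT5A was lower with COL1A1 on D11 (16.6 and 15.3 CPM against 32.5 and 34.8 CPM, -1.22 ± 0.15, edgeR adjusted p = 0.000507) and slightly higher on D45 (11.7 and 16.1 CPM against 9.22 and 14.4 CPM, 0.46 ± 0.11, adjusted p = 0.0106). The D45 call was lost without D45 A (0.34, adjusted p = 0.302) or D45 B (0.48, adjusted p = 0.117).

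The remaining COL1A1 calls were LGR4 on D28 (0.40 ± 0.12, edgeR adjusted p = 0.0282), lost without D11 A, D11 B or D28 A (0.12, adjusted p = 0.632, without the last and adjusted p = 0.0543 and 0.0541 without the others), and RSPO1 on D45 (0.90 ± 0.28, adjusted p = 0.0337), lost without D45 A (0.72, adjusted p = 0.35) or D45 B (1.04, adjusted p = 0.2). In the 3 days 3, 3 and 4 of 8 members passed, against 10.2, 26.3 and 29.2% of all 21408 genes tested. The effect differed between D45 and D11 for 4 members against 17% of genes, among them RSPO2 (2.48 ± 0.31, edgeR adjusted p = 0.000503), WNT5A (1.67 ± 0.18, adjusted p = 0.000233) and WNT8B (2.97 ± 0.31, adjusted p = 0.000198). The RSPO2 value was 3.32 without D11 B and that of WNT8B 3.96 without D11 A. The other was LGR6, which had 0 UMIs in the COL1A1 cells of both D11 libraries and gets no fold. At 1000 UMIs per cell, where few COL1A1 cells of D11 remained, the D11 difference of RSPO2 was -1.58 (adjusted p = 0.898), and no D11 call or difference between days kept its call.

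Levels between days were also compared within the cells that carried a marker. These cells were not 1 kind of cell. LMX1A UMIs lay mostly in the floor plate-like clusters 10 (64.6%) and 2 (23.0%) on D11, in the unnamed clusters 7 (31.1%), 25 (30.6%) and 26 (15.6%) on D28, and in clusters 23 (26.1%), 26 (25.4%) and 6 (18.9%) on D45. In LMX1A cells RSPO2 fell by 1.57 ± 0.19 log2 units from D11 to D28 (edgeR adjusted p = 0.000821) and RSPO3 rose by 3.46 ± 0.31 (adjusted p = 0.000204), from 0.860 and 0.879 CPM to 12.7 and 10.2 CPM. RSPO1 went from 1 UMI in each D11 library to 5.02 and 5.33 CPM on D28, with no fold given. Neither RSPO1 nor RSPO3 could be fitted within LMX1A cells at 1000 UMIs per cell. LGR4 (-0.82 ± 0.24, edgeR adjusted p = 0.034) and WNT5A (-0.74 ± 0.20, adjusted p = 0.0272) fell as well, but both calls were lost without D11 A (adjusted p = 0.205 and 0.216) or D11 B (adjusted p = 0.14 and 0.144), that of LGR4 also without D28 A (-0.50, adjusted p = 0.0698), D45 A (adjusted p = 0.0572) or D45 B (adjusted p = 0.0583), and both with the replicate block (adjusted p = 0.0606 and 0.0543). From D28 to D45, RSPO3 fell by 1.82 ± 0.29 (edgeR adjusted p = 0.00869), RSPO1 by 1.75 ± 0.31 (adjusted p = 0.0133) and WNT5A by 1.25 ± 0.21 (adjusted p = 0.0103). These were lost without D45 A (-1.79, adjusted p = 0.0863, -1.63, adjusted p = 0.109, and -1.03, adjusted p = 0.0899), and the first 2 also without D45 B (adjusted p = 0.0629 and 0.067). The counts were 5 of 8 members for D28 against D11, with 30.2% of all 18927 genes tested, and 3 for D45 against D28, with 16%.

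CORIN UMIs lay mostly in the floor plate-like cluster 2 on D11 (58.9%) and cluster 3 on D28 (73.7%), and in the fibroblast-like cluster 11 (33.6%) and the astrocyte-like cluster 24 (26.9%) on D45, so these levels between days are not levels within 1 kind of cell either. In CORIN cells RSPO1 rose from D11 to D28 by 7.35 ± 0.73 (edgeR adjusted p = 0.00108), a size that rests on the 0 and 7 UMIs of D11, ran from 6.50 to 11.16 over omissions of a library and could not be fitted at 1000 UMIs per cell. RSPO3 rose by 4.08 ± 0.61 (edgeR adjusted p = 0.00437, or 2.99 without D28 A) from D11 to D28 and could not be fitted at 1000 UMIs per cell, while WNT8B fell by 1.64 ± 0.40 (adjusted p = 0.0265) and LGR5 by 1.29 ± 0.33 (adjusted p = 0.0295). The WNT8B call was lost without D11 A (-1.56, adjusted p = 0.136), D11 B (-1.74, adjusted p = 0.0873), D45 A (adjusted p = 0.0522) or D45 B (adjusted p = 0.0516) and was -2.56 without D28 B, and the LGR5 call was lost without D11 A (-1.14, adjusted p = 0.27) or D11 B (-1.43, adjusted p = 0.148) and with the replicate block (-1.28, adjusted p = 0.0668). From D28 to D45, WNT5A fell by 1.70 ± 0.20 (edgeR adjusted p = 0.00409) and LGR5 rose by 1.79 ± 0.35 (adjusted p = 0.0168). The WNT5A call was lost at 1000 UMIs per cell (-1.60, adjusted p = 0.0846), and the LGR5 call without D11 A, D11 B, D45 A or D45 B (adjusted p = 0.0538, 0.0516, 0.0707 and 0.0538). That made 4 of 8 members against 23.7% of all 19171 genes for the first interval and 2 of 8 against 19.1% for the second.

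In STMN2 cells RSPO1 rose from D11 to D28 by 5.22 ± 0.60 (edgeR adjusted p = 0.00264), a size that rests on 3 and 7 UMIs on D11 and could not be fitted at 1000 UMIs per cell. RSPO3 rose by 3.21 ± 0.56 (adjusted p = 0.0113) from D11 to D28, and WNT8B fell by 1.98 ± 0.53 (adjusted p = 0.045). RSPO3 was lost without D11 A (2.82, adjusted p = 0.0981) or D11 B (3.77, adjusted p = 0.0555) and was 2.495 without D28 A, and WNT8B was lost without D11 A (-1.68, adjusted p = 0.223), D11 B (-2.24, adjusted p = 0.122) or D28 A (-1.52, adjusted p = 0.0528) and was -2.71 without D28 B. WNT5A fell by 1.69 ± 0.31 from D28 to D45 (adjusted p = 0.0292), lost without D11 A (adjusted p = 0.0702), D11 B (adjusted p = 0.0695), D45 A (-1.32, adjusted p = 0.191) or D45 B (-2.09, adjusted p = 0.0905) and with the replicate block (-1.73, adjusted p = 0.0631). Both WNT8B (-0.72, adjusted p = 0.228) and WNT5A (-1.15, adjusted p = 0.126) missed the threshold at 1000 UMIs per cell. The counts were 3 of 8 against 16.1% of all 21391 genes tested and 1 of 8 against 6.15%.

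Cells were also clustered with the members, the listed WNT genes and the gate markers left out of the variable genes. Clusters are described with no test, since they were built on the same cells. The leading RSPO2 cluster differed between days, but the libraries were clustered together with no correction for day. Cluster 10 had 1414 and 1877 of its 3304 cells in the D11 libraries. Cluster 25 had 1020 and 422 of its 1455 cells in those of D28, and cluster 23 had 410 and 1109 of its 1534 in those of D45. A change of leading cluster between days therefore cannot be read as a move of RSPO2 between kinds of cell. On D11 cluster 10, floor plate-like and led by ADAMTS19, SCIN and TRPA1 after RSPO2 itself, held 9.08% of the cells and 81.6% of the RSPO2 UMIs, at 598 and 538 CPM (A, then B), and 88.4% of its cells showed RSPO2. On D28 cluster 25, unnamed and led by CNMD, ALDH1A1 and C1QL4, held 5.12% of the cells and 71.7% of the RSPO2 UMIs, at 320 and 504 CPM. On D45 cluster 23, astrocyte-like and led by DAPL1, SLCO1C1 and NPR3, held 3.94% of the cells and 61.8% of the UMIs, at 212 and 191 CPM. A second carrier on D45 was cluster 26, led by TH, CCK and GRP and unnamed, with 10.0% of the UMIs at 282 and 107 CPM. TH is the rate-limiting enzyme of dopamine synthesis. The part of free RNA in these levels was not tested. RSPO2 was seen in 1.24 and 2.22% of oligodendrocyte lineage-like cells of D45 (1.6 and 3.29 CPM, median 9737 and 9918 UMIs per cell). It was seen in 13.2 and 28.8% of astrocyte-like cells (median 13480 and 13214 UMIs), and in 51.7 and 65.9% of those in cluster 23. Floor plate-like cells showed it in 22.1 and 20.6% on D11 and in 3.27 and 1.79% on D28, but the class was made of clusters 2, 10 and 12 on D11, with RSPO2 in 90.2 and 87.1% of cluster 10, and almost wholly of cluster 3 on D28, so this is no fall within 1 cluster. The share in oligodendrocyte lineage-like cells of D28 B was 2.4%.

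WNT8B was carried elsewhere on D11. Cluster 8, unnamed and led by PMCH, MECOM, WNT8B and DBX1, held 57.2% of the D11 UMIs at 243 and 206 CPM, and cluster 20, mitotic-like and led by TOP2A, CENPF and MECOM, held 33.1% at 183 CPM over both libraries. These clusters also carried RSPO2, with 6.44 and 5.08% of its D11 UMIs at 40.9 and 44.9 CPM. On D28 cluster 28, led by PAX5, FGF8 and EMX2, held 41.9% at 173 CPM, but it counted 34 cells in D28 A and 876 in D28 B. Cluster 25, the RSPO2 cluster of that day, held 22.5%. On D45 the RSPO2 cluster 23 held 53.1% of the WNT8B UMIs at 53.6 CPM, and cluster 15, astrocyte-like, 14.6%. Fibroblast-like cells, the class lowest in WNT8B, showed a UMI in 0.883, 1.03, 0.469 and 0.836% of cells from D28 A to D45 B.

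WNT5A lay mostly in floor plate-like cells on D11 and D28, beside the unnamed cluster 25 on D28. On D11 clusters 2 and 10 held 42.3 and 27.8% of its UMIs at 51.1 and 80.4 CPM, and on D28 clusters 3 and 25 held 57.3 and 18.8% at 60.5 and 87.5 CPM. Cluster 2 is floor plate-like by 8 markers, though C1QA and SLA-DQB1, genes known from immune cells, are among its leading genes, and cluster 3 is floor plate-like by 6 markers and led by the interferon-induced genes IFI6, ISG15 and MX1. Floor plate-like cells had 58.7, 53.8, 60.2 and 60.7 CPM of WNT5A from D11 A to D28 B, and neuron-like cells 4.04, 4.42, 9.36 and 4.84 CPM. Here and below, the neuron-like class leaves out the unnamed clusters 7, 17, 26, 27 and 37, which carry the neuron markers. In D28 A it counted 790 cells, against 3702 in cluster 7. On D45 cluster 23 held 33.1% of the WNT5A UMIs at 42.6 CPM, so that RSPO2, WNT8B and WNT5A then had the same leading cluster.

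RSPO1 and RSPO3 had other carriers. Cluster 3 held 72.1% of the RSPO1 UMIs of D28, at 10.6 and 7.93 CPM, and the astrocyte-like cluster 24 held 34.7% of those of D45. With fewer clusters (resolution 0.4) RSPO1 over all libraries was 2.84 CPM in astrocyte-like and 2.82 CPM in floor plate-like cells. Neuron-like cells had 0.138 to 0.299 CPM of RSPO1 in the 5 libraries where they showed any. RSPO3 was spread on D28, with 30% in cluster 25 (38.9 CPM), 20% in cluster 3 and 11.4% in cluster 11, and was concentrated on D45, when the fibroblast-like cluster 11 held 48.4% at 61.5 and 27.3 CPM. Cluster 29, unnamed and led by LTBP1, MT3 and ZIC4, held 19.0% of the RSPO3 UMIs of D45, with 25 UMIs (5.68 CPM) in D45 A and 318 UMIs (60.5 CPM) in D45 B. RSPO3 was seen in 11.0 and 8.92% of fibroblast-like cells of D45 and in 0.323 and 0.779% of oligodendrocyte lineage-like cells.

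**Figure D4:**
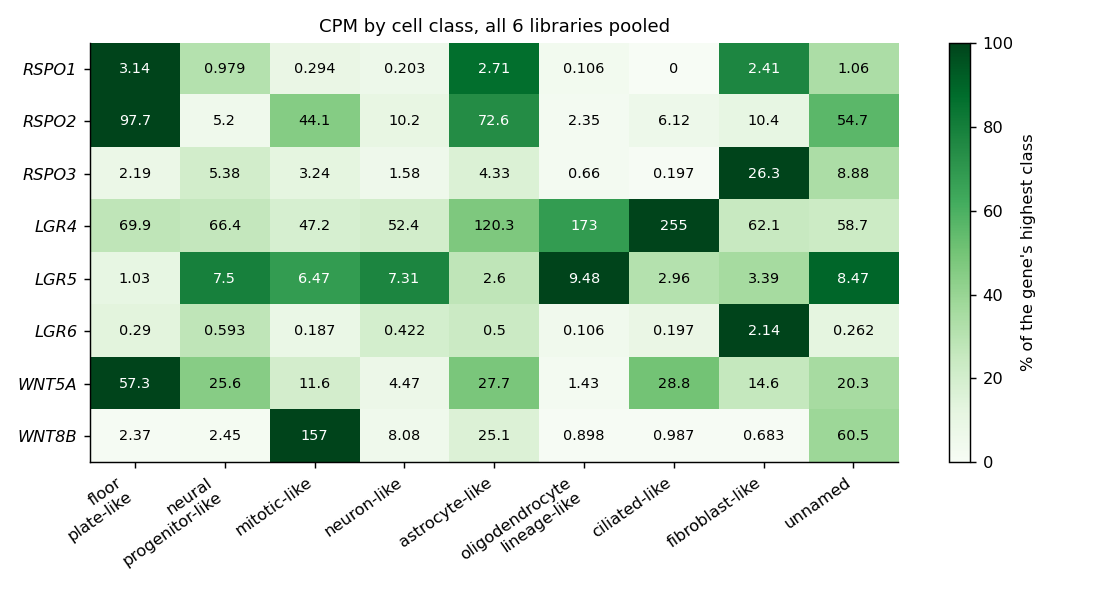
Level of the 8 members above the low-count filter by cell class, in CPM over the cells of all 6 libraries pooled, with shading as a percentage of each gene's highest class. In these sums, which mix days while the classes differ in cells per day, RSPO2, RSPO1 and WNT5A were highest in floor plate-like cells, RSPO3 and LGR6 in fibroblast-like cells, LGR4 in ciliated-like cells and LGR5 in oligodendrocyte lineage-like cells.

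Among the receptors, LGR4 was detected in every class, from 47.2 CPM in mitotic-like to 255 CPM in ciliated-like cells over all libraries. On D45 it was at 195 and 147 CPM in oligodendrocyte lineage-like cells, 145 and 104 CPM in astrocyte-like cells, 265 and 238 CPM in ciliated-like cells, 64.7 and 58.9 CPM in neuron-like cells and 50.3 and 62.4 CPM in fibroblast-like cells. Over whole classes the ciliated-like and oligodendrocyte lineage-like levels do not overlap each other. Neither overlaps the neuron-like or fibroblast-like levels, which overlap each other. The oligodendrocyte lineage-like class was uneven. Its cluster 21 was at 304 and 244 CPM, which overlaps the ciliated-like levels, so its cluster 19 lay below the class levels. Cluster 19 held 880 and 865 of the 1858 and 1668 cells, and its distance from neuron-like cells was not tested. Oligodendrocyte lineage-like, astrocyte-like and ciliated-like cells were rare or absent on D11, where LGR4 was at 90.5 and 69.7 CPM in neural progenitor-like, 74.4 and 64.2 CPM in floor plate-like and 48.5 and 36.9 CPM in neuron-like cells. On D45 the oligodendrocyte lineage-like cells had 1.60 and 3.29 CPM of RSPO2 and 0.551 and 1.96 CPM of WNT5A. Astrocyte-like cells had 56.4 and 91.7 CPM of RSPO2 and 22.8 and 31.3 CPM of WNT5A. Of the 5084 RSPO2 UMIs of the astrocyte-like class over all libraries, 4632 lay in cluster 23 on D45. That cluster made up 410 of 2028 and 1109 of 2977 astrocyte-like cells of D45 (A, then B).

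LGR5 was spread over several clusters, and its highest class changed with the clustering, from oligodendrocyte lineage-like cells to mitotic-like cells at resolution 0.4 (9.48 and 9.96 CPM). The neuron-like cluster 13 held the largest share on D11 (20.4%, 9.23 CPM). On D28 cluster 28 held 26.9% at 25.1 CPM, all 219 UMIs from D28 B and 0 from D28 A. On D45 cluster 29 held 24.4%, at 44.7 and 57.6 CPM. Floor plate-like cells were low in LGR5 throughout, at 1.56, 1.11, 0.288 and 0.698 CPM from D11 A to D28 B, against 8.02, 6.91, 3.12 and 4.92 CPM in neuron-like cells. LGR6 was led on D45 by the fibroblast-like cluster 11, with 50.9% of its UMIs at 8.03 CPM in D45 A and 1.87 CPM in D45 B.

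Co-detection in single cells was counted in cells of at least 1000 UMIs, each thinned to 1000. The number of cells with both genes was set against the number that independent detection would give. It is a description, given where at least 3 such cells are expected. RSPO2 and WNT8B were seen together less often than expected on D11 and more often later. Both were seen in 10 and 18 cells on D11, where 36.3 and 30.8 were expected (0.28 and 0.59 times). On D28 both were seen in 32 and 26 cells where 3.8 and 5.4 were expected (8.43 and 4.86 times), and in D45 B in 24 cells where 4.2 were expected (5.65 times). In D45 A there were 7 such cells, with too few expected for a ratio. Without thinning, over all kept cells, cells with both numbered 195, 382, 181, 202, 134 and 425, or 0.53, 1.24, 4.24, 3.00, 10.39 and 5.28 times the expected number. D11 B was thus above 1 without thinning and below 1 with it, though on different sets of cells. On D28, 74.0 and 56.4% of the cells with both, counted without thinning, lay in cluster 25, and on D45, 76.1 and 79.5% in cluster 23. On D11 the largest share, 35.4 and 42.4%, lay in cluster 8. Cells called as doublets made up 14.0% of cluster 10, 8.25% of cluster 25 and 6.85% of cluster 23, and their part in the joint counts was not tested.

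RSPO2 and WNT5A were found together more often than independent detection gives in the 5 libraries with a ratio, at 2.28, 1.79, 1.39 and 1.93 times from D11 A to D28 B and 1.36 times in D45 B. RSPO2 and its receptor LGR4 were not. They were seen together in 48, 63, 12, 13, 9 and 28 cells, or 0.98, 1.09, 0.80, 0.78, 0.53 and 0.84 times the expected number. LGR4 with WNT5A gave 1.10, 1.25, 0.68, 0.92, 0.86 and 0.99 times, and LGR4 with WNT8B 1.02, 0.88, 0.58, 1.22, 1.29 and 1.64 times. With 2000 UMIs per cell the LGR4 and WNT8B ratios of D45 were 0.97 and 0.91, and those of RSPO2 and WNT8B were 0.28 and 0.57 on D11, 6.03 and 3.92 on D28 and 3.49 in D45 B.

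**Figure D5:**
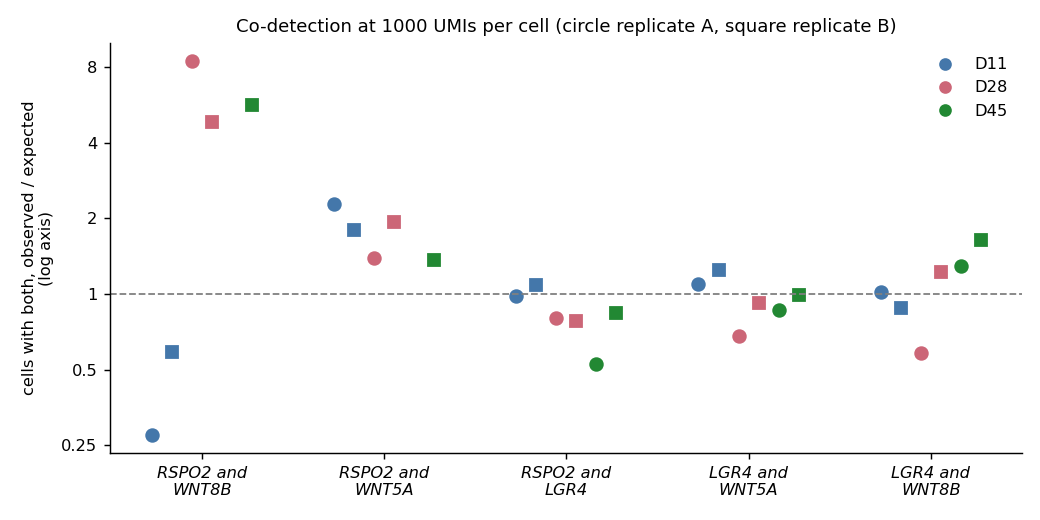
Cells in which both genes of a pair were detected, divided by the number expected from independent detection (log axis), at 1000 UMIs per cell, for replicate A (circles) and B (squares) of each day. RSPO2 with WNT8B lay under 1 on D11 and at 4.86 or above afterwards, and RSPO2 with LGR4 stayed between 0.53 and 1.09.

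The other genes of the pathway were taken from 4 lists and compared between days in whole organoids. Of 19 other WNT ligands and R-spondin relatives tested, 5 rose and 1 fell from D11 to D28, 3 rose and 3 fell from D28 to D45, and 6 rose and 3 fell from D11 to D45, with list medians of 0.59, -0.21 and 1.02 log2 units beside 0.03, -0.03 and -0.01 for all genes. Of all genes tested, 23.1, 9.4 and 34.6% were called in these comparisons in either direction, and the counts of all 4 lists stand beside those shares. Some called rises of ligands were at very low levels. WNT16 went from 0 and 0.00555 CPM on D11 to 0.206 and 0.119 CPM on D28, and WNT8A from 0 and 0.0167 to 0.0749 and 0.119 CPM. RSPO4 went from 0.0936 and 0.0159 CPM on D28 to 0.397 and 0.772 CPM on D45. WNT7A was higher, at 3.55 and 4.61 CPM on D28 and 14.6 and 13.4 CPM on D45. WLS, which escorts WNT ligands to the cell surface, went from 431 and 546 CPM on D11 and 364 and 335 CPM on D28 to 115 and 133 CPM on D45 (-2.39 for D45 against D11, edgeR adjusted p = 0.000878). NDP, a Frizzled ligand that is not a WNT, rose from 1.82 and 1.46 CPM on D11 to 11.2 and 11.6 CPM (2.39 log2 units).

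Among 18 receptors and receptor regulators tested, 2 rose and 3 fell by D28, 1 rose and 2 fell between D28 and D45, and 4 rose and 4 fell from D11 to D45 (medians -0.31, -0.09 and -0.22), beside 23.1, 9.4 and 34.6% of all genes. FZD2, a Frizzled receptor, fell from 45.8 and 47.4 CPM on D11 to 8.26 and 11.5 CPM, and ROR2, a receptor for WNT5A, rose from 7.83 and 6.22 CPM to 28.3 and 45.9 CPM. RNF43, the ubiquitin ligase held off by R-spondins, rose from 0.474 and 0.389 CPM to 2.23 and 1.44 CPM. Of 15 inhibitors, 5 rose and 1 fell by D28 and 3 rose and 2 fell by D45, both against D11 (medians 0.53 and 0.30). DKK2 and SHISA2 were among the rises. Between D28 and D45 edgeR called 0 of these 15, with 5 at an unadjusted p under 0.05 and 3 called by DESeq2. Of 9 target genes, 0 rose and 3 fell by D28, and 1 rose and 2 fell from D11 to D45 (medians -0.36 and -0.04). CCND1, a cyclin and WNT target, fell from 214 and 203 CPM to 60.3 and 66.3 CPM, and NKD1, a feedback inhibitor, rose from 17.9 and 16.8 CPM to 48.7 and 55.0 CPM. Between D28 and D45 edgeR called 0 of the 9 targets, with 4 at an unadjusted p under 0.05 and 4 called by DESeq2.

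Across the 38 clusters of at least 100 cells, 10419 genes were ranked by the Pearson correlation of their log2(CPM + 1) with each member, as a description in which the clusters share libraries and depth. RSPO2 was most like LMX1A (r = 0.802), DMRTA1 (0.786) and DMRTA2 (0.770). WNT8B was most like DBX1 (0.899), OTX1 (0.866) and OTX2 (0.820), and WNT5A most like NTN1 (0.875), VASN (0.868) and KITLG (0.868). For RSPO1 the leading genes were IFIT1 (0.85), FMOD (0.839) and WIF1 (0.836), and for RSPO3 CLDN5 (0.779), MASP1 (0.749) and ALDH1A1 (0.723). Genes close to LGR4 were FGGY (0.841) and PHLPP1 (0.834), and LGR5 was closest to WNT7B (0.716), PTGIS (0.699) and WDR75 (0.698) and LGR6 to FAM20A (0.780), TWIST2 (0.757) and ANGPTL4 (0.756).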

How the data were processed

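Cells were captured with droplet 3′ chemistry. Per the labels and the study's methods, reads were aligned to Sscrofa11.1 and counted with Cell Ranger 8.0.1, with Seurat 4.3.0 also named in the submitters' processing notes. The deposited files hold raw UMI counts per gene and cell for each library. Coordinates and upstream sequences were read from the RefSeq annotation of the same build.

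Cells with 200 to 7000 detected genes and at most 10% of UMIs from 37 mitochondrial genes were kept. Doublets were scored by the share of simulated doublets among a cell's neighbours, called up to an assumed rate (770 to 1858 cells per library) and kept. UMI counts were summed per library, or per library and gate in sums of at least 20 cells, and tested with edgeR 4.0.16 in R 4.3.3 (quasi-likelihood test, TMM scaling, filterByExpr, Benjamini-Hochberg over all genes tested, threshold 0.05). Day was the term for whole organoids and within gates. Gate comparisons had library as a term, which paired both sums of a library, and 1 gate effect per day. The fit was tried on simulated counts with a fixed spread and no difference in make-up between libraries. That trial does not measure error rates in the real libraries. Clustering (scanpy 1.11.5) used 1991 of 2000 variable genes, 30 principal components, 20 neighbours and Leiden resolution 0.8. It gave 40 clusters, named X-like from at least 3 markers. A cluster whose leading genes held more markers of another list was left unnamed.

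Alternatives were another test or scaling (DESeq2 1.42.0), no gene or cell filter, doublets removed, and 2 UMIs for a gate. Others were cells of at least 1000 UMIs thinned to 1000, the replicate letter as a block, each library left out, and resolutions 0.4 and 1.2. All 9 members were named throughout, with the 3 most alike genes of each member of at least 100 UMIs and, from each pathway list, some of the 2 largest rises and falls that passed without overlap of libraries. One of the genes most alike LGR4 is not reported here. Members and lists were chosen with earlier results of these data known.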

Additional observations from a re-analysis of the deposited data

Results flagged for a closer look

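For 10 combinations of gene and gate the effect of the gate differed between D45 and D11 in a direct test of that difference (edgeR's quasi-likelihood test, adjusted p under 0.05). In each gate 8 members were tested. Of all genes tested, 14.2% (LMX1A), 8.92% (CORIN), 15.7% (STMN2) and 17% (COL1A1) were called in the same tests. With LMX1A the difference was 4.17 log2 units for WNT8B, -0.70 for LGR4 and -0.60 for WNT5A. With CORIN it was 2.10 for WNT8B and 1.85 for RSPO3. With STMN2 it was 0.61 for RSPO2. With COL1A1 it was 2.48 for RSPO2, 1.67 for WNT5A and 2.97 for WNT8B, where the median of all genes was 0.28. The UMIs of LMX1A, CORIN and COL1A1 lay mostly in different clusters on D11 and D45, so these are not changes within 1 kind of cell. LGR6 was also called with COL1A1, but with 0 UMIs in the COL1A1 cells of D11 it is given no fold. WNT8B was found in 3 of these gates, and only in the LMX1A gate did its level change sides, from below the other cells in both D11 libraries to above them in both D45 libraries. At 1000 UMIs per cell the calls of WNT8B and LGR4 with LMX1A and of RSPO2 with STMN2 were kept, and the others were not.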

How the results depend on the processing

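Of 96 called differences of members that have a fold, 46 stayed called when each of the 6 libraries was left out in turn, namely 3 of 10 between days in whole organoids, 32 of 60 between cells with and without a marker, 5 of 9 differences of the gate effect between days and 6 of 17 between days within a gate. The counts of members called by edgeR over these omissions, lowest to highest, were 1 to 5, 0 to 6 and 2 to 7 in whole organoids (D28 against D11, D45 against D28, D45 against D11). On D11, D28 and D45 they were 3 to 4, 2 to 3 and 2 to 6 for LMX1A, 4 to 5, 5 to 6 and 1 to 5 for CORIN, 2 to 5, 3 to 5 and 2 to 6 for STMN2, 3 to 4, 2 to 3 and 1 to 6 for COL1A1, and 1 to 4, 5 to 7 and 0 to 4 for LMX1A cells split by CORIN. For the difference between D45 and D11 they were 1 to 3 (LMX1A), 1 to 2 (CORIN), 0 to 2 (STMN2), 3 to 6 (COL1A1) and 0 to 2 (the split). Within gates they were 3 to 6 and 0 to 5 (LMX1A), 2 to 5 and 1 to 5 (CORIN) and 1 to 5 and 0 to 6 (STMN2) for D28 against D11 and D45 against D28. Where 1 library of a day was left, it was assumed to vary like the others. The counts here and below, under omissions, thinning and other settings, stand without a share of all genes. They therefore say nothing particular to the members.

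Thinning to 1000 UMIs per cell, which also left out the cells with fewer, changed most. It left 37 of 77 called differences that could be fitted. The counts became 1 for D45 against D28 in whole organoids, 2 for LMX1A on D45, 3, 2 and 0 for CORIN on D11, D28 and D45, 0 and 1 for COL1A1 on D11 and D28, 0 for the difference between days of CORIN and of COL1A1, and 0 for the split on D11 and D28. Within gates they became 1 (LMX1A, D45 against D28), 0 and 0 (CORIN) and 0 (STMN2, D45 against D28). It turned the sign of LGR4 for CORIN on D45 (-0.43), of RSPO2 for STMN2 on D28 (-0.41), and of WNT8B within LMX1A cells between D11 and D28 (1.31). The fitted value of RSPO1 for CORIN on D45 became -5.72, but the CORIN cells left held 0 UMIs of it, so no direction is read from it. Thinned sums hold few counts of these genes, and the cause was not tested. Leaving out D28 B turned WNT8B for STMN2 on D28 from -0.20 to 0.98, and leaving out D28 A gave -0.74.

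Replicate letters did not pair the libraries (correlations of deviations -0.297, 0.0411 and -0.186). With the letter as a replicate block 22 of 27 calls were kept, and the counts became 1 for D45 against D28 in whole organoids, 3 for D28 against D11 within LMX1A cells and 0 for D45 against D28 within STMN2 cells. DESeq2 kept 92 of 95 calls and called 4 and 3 members for D45 against D28 within CORIN and STMN2 cells. DESeq2's size factors kept 93 and gave 0 for the difference between days of STMN2. No low-count filter kept 96 and gave 5 for STMN2 on D45, 2 and 1 for the differences between days of STMN2 and of the split, and 2 for D45 against D28 within STMN2 cells. No filter on cells kept 90 and doublet removal 91, the latter with 1 for the split on D11 and 1 for its difference between days. At least 2 UMIs for a gate kept 76 of 86, with 3 for the difference between days of STMN2, 1 for the split on D11 and 1 for its difference between days.

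The class of WNT8B depended on the clustering. Its level in mitotic-like cells was 157 CPM, 7.0 CPM at resolution 0.4 and 85.3 CPM at 1.2. LGR5 in oligodendrocyte lineage-like cells was 9.48 CPM, and 9.48 and 3.76 CPM at 0.4 and 1.2, where mitotic-like cells were the highest class (9.96 and 8.90 CPM). RSPO1 was highest in astrocyte-like cells at 0.4 (2.84 against 2.82 CPM in floor plate-like cells). D45 A was the shallowest library per cell. WNT1, with at most 13 UMIs in any library, was too low to be tested. No difference of LGR6 between days was detectable in whole organoids.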
